A study of Mus musculus with 10 samples.

Results

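The genes described here are 36 genes that make fatty acids, triglycerides and cholesterol or control their synthesis, chosen by name. Of these, 35 have a row among the 15883 genes of the count table, and all 35 passed the filter on low counts that left 13338 genes for testing. The remaining gene, Hmgcs1, an early enzyme of cholesterol synthesis, was not analysed here. The libraries come from biceps femoris, a muscle of the thigh, taken from 10 C57BL/6J males aged 5 weeks on normal chow after a fast of 16 hours. The series names 5 wild-type mice and 5 mice with a transgene for Zfp407, a zinc finger protein. Which promoter drives the transgene, and how many founder lines were used, is not stated in the labels. The title of the series ties the transgene to glucose homeostasis, and the comparison asks which transcripts differ between the groups.

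Cells build fatty acids from acetyl groups that citrate carries out of the mitochondrion. Acetyl-CoA carboxylase and fatty acid synthase join them into chains, elongases and desaturases modify the chains, and acyltransferases place them on glycerol to form triglycerides. Cholesterol is built from the same acetyl units by way of mevalonate and squalene. The transcription factors SREBP1, SREBP2 and ChREBP raise the genes of these pathways after feeding or when sterols are low, and fasting lowers many of them in liver and fat. Skeletal muscle makes little new fat compared with those tissues.

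The libraries held from 13530367 to 19047834 counts. Rows that resemble ribosomal RNA took 14.3 to 33.9% of them in wild type and 9.62 to 17.3% in the transgenic group, and without those rows Fads1 was again the 1 gene of the 35 called, at 1.40 ± 0.17 (SE, log2 fold change). Levels are given as CPM, counts relative to the size of the library after TMM scaling, and a library is numbered by its column within its group, since no column names its mouse. Zfp407 stood at 20.9 to 25.6 CPM in wild type and at 316 to 615 CPM in the transgenic group (exact two-sided permutation p = 0.00794, the smallest this design allows). The 10 muscle markers, among them Acta1 and Ckm, summed to 175152 to 243021 CPM in wild type and to 143046 to 175845 CPM in the transgenic group, and none of the 10 passed in edgeR or DESeq2. Transcripts of other tissues were present as well. The 25 hepatocyte markers summed to 183 to 301 CPM in wild type and to 533 to 5650 CPM in the transgenic libraries, with none at 0 throughout a group, and 23 of them rose. The 12 adipocyte markers summed to 265 to 1430 CPM in wild type and to 248 to 1203 CPM in the transgenic group, with none at 0 throughout a group and, of the 11 tested, none past the threshold in edgeR or DESeq2. In bulk muscle, fewer cells of a type and less RNA per cell cannot be told apart.

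Of the 35 genes, 1 rose, the fatty acid desaturase gene Fads1, and none fell at an edgeR adjusted p of 0.05. Among all genes tested 4.28% rose and 1.05% fell, or 5.33% in either direction, so the share of called lipid synthesis genes lay below or near the background. At an unadjusted p of 0.05, 3 were higher and 4 lower, where 11.2% and 6.87% of all genes were. DESeq2 called 2 as higher and none as lower, with 7.74% of all genes called, and the authors' deposited table the same 2, with 7.29%. The median log2 fold change was 0.046 over the 35 genes and 0.003 over all genes tested, and 19 estimates lay above 0 and 16 below. Fads1 was also the single gene of the 35 whose transgenic libraries lay wholly above the wild-type libraries, against 5.14% of all genes, and for none did they lie wholly below, against 2.9%. In either direction the groups lay apart for 8.04% of all genes.

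**Figure D1:**
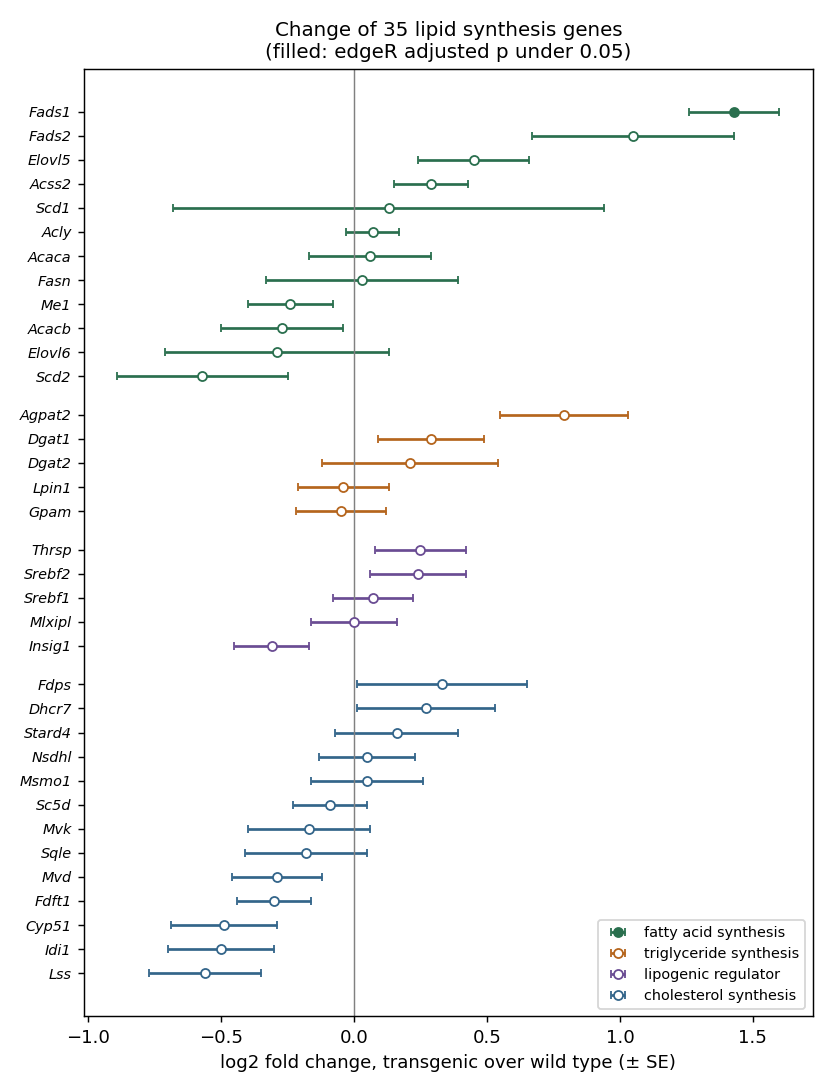
Log2 fold change of transgenic over wild type (x axis) with its SE for 35 genes, grouped by role, from edgeR with 5 libraries a group. Filled points passed an adjusted p of 0.05. Fads1, at 1.43, is the 1 filled point, and the estimates of the cholesterol genes run from -0.56 to 0.33.

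Promoter sequence is given for 4 genes to show the motifs through which this pathway is known to be controlled. RefSeq entries on GRCm38.p6 matched 27 of the 36 genes with 34 start sites. Windows of 300 bases, 250 before and 50 after a start, were searched on both strands for TCACNCCAC, a sterol regulatory element through which SREBP acts, for CCAAT, bound by NF-Y, for GGGCGG, bound by Sp1, and for CACGTG, an E-box. CCAAT stood in 23 of the 34 windows, against 37.4% of 32851 windows of all genes. GGGCGG was in 22 of the 34, against 35.7% of all windows. The E-box was in 5, against 7.15%, and TCACNCCAC in 2, of Mlxipl and Hmgcs1, against 1.24%. All 10 cholesterol synthesis genes with an entry, Hmgcs1 among them, held both CCAAT and GGGCGG in a window. Of the several Dhcr7 windows only that from 143829964 to 143830263 held both. The share of all windows with both was not counted. A match describes letters in a window and not a bound site. No entry was matched for Fads1, Scd1, Scd2, Dgat1, Dgat2, Fdft1, Fdps, Sqle and Stard4.

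Below, Mlxipl (a start within the gene, chr5:135106641-135106890, plus strand) carries the sterol regulatory element, Mvd (chr8:122443423-122443672, minus strand) and Sc5d (chr9:42264301-42264550, minus strand) stand for the cholesterol genes, and Agpat2 (chr2:26604418-26604667, minus strand) had the highest estimate of the triglyceride genes. Each run is the 250 bases before a start, 5′ to 3′ on the strand of its gene, and none overlaps an annotated exon. Capitals mark CCAAT, or ATTGG where it lies on the other strand, and in Mlxipl the sterol regulatory element. They were chosen after their values were seen.
Mlxipl: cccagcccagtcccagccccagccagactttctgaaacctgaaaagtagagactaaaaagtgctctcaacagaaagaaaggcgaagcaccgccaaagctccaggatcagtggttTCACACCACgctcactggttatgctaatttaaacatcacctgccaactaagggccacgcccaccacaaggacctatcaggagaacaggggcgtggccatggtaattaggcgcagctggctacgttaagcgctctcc
Mvd: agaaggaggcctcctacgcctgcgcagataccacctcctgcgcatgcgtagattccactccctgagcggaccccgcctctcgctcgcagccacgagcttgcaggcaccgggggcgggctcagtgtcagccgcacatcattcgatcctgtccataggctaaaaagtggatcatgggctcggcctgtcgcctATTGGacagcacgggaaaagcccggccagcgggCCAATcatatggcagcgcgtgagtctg
Sc5d: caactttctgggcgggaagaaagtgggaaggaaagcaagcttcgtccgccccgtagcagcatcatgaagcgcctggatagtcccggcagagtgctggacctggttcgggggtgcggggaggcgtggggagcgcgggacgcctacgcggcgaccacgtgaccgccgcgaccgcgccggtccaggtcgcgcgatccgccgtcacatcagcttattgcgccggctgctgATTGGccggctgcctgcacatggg
Agpat2: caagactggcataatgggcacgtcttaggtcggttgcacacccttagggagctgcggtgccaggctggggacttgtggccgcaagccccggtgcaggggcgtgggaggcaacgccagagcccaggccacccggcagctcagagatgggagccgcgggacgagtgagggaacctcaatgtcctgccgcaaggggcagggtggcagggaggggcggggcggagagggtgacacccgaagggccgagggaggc

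Counted from the start, where the base before it is -1, CCAAT began at -60 and -27 in Mvd and at -24 in Sc5d, and the sterol regulatory element of Mlxipl at -136. The Agpat2 run held neither motif.

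Fads1 and Fads2 encode the desaturases that turn dietary linoleic and linolenic acid into long polyunsaturated fatty acids. Fads1 (chromosome 19, 10182888 to 10196877, plus strand, GRCm38) stood at 5.82, 5.16, 6.10, 4.22 and 7.43 CPM in wild-type libraries 1 to 5 and at 13.1, 13.5, 18.6, 13.4 and 19.2 CPM in transgenic libraries 1 to 5. The groups did not overlap, and transgenic libraries 3 and 5 were the highest. The mean rose from 5.75 ± 1.19 to 15.6 ± 3.07 CPM (SD, n = 5 each), a log2 fold change of 1.43 ± 0.17 (SE, adjusted p in edgeR = 0.000400), or 2.70-fold. Leaving out any 1 library kept the call, with log2 fold changes from 1.31 to 1.54. The hepatocyte markers summed to 578, 928, 533, 1400 and 5650 CPM in transgenic libraries 1 to 5. Fads1 was highest in transgenic library 5, where that sum was highest, and next highest in library 3, where it was lowest. On deviations from the group means Pearson's r of Fads1 with the hepatocyte marker mean was 0.35, a relation that was not tested. Without transgenic libraries 4 and 5 the log2 fold change was 1.39 ± 0.19 (SE, adjusted p in edgeR = 0.00296). With the mean of the hepatocyte markers as a covariate it was 1.19 ± 0.27 (SE) and did not pass (edgeR adjusted p = 0.0747). In that fit none of the 35 genes was called, and 5 had an unadjusted p under 0.05, where 12.3% of all genes did. The covariate, a mean log2 CPM of 1.29 to 2.19 in wild type and of 3.01 to 6.51 in the transgenic group, separates the groups.

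Fads2 had 1.18, 1.18, 2.66, 1.69 and 1.66 CPM in wild type and 2.0, 2.98, 3.29, 2.03 and 7.52 CPM in the transgenic group. Transgenic library 5 was the highest by far, and wild-type library 3 lay above transgenic libraries 1 and 4. The log2 fold change was 1.05 ± 0.38 (SE, adjusted p in edgeR = 0.146), 0.59 ± 0.28 without transgenic library 5 and -0.15 ± 0.48 beside the hepatocyte covariate. Elovl5, the elongase that works between both desaturase steps, ran from 11.8 to 19.7 CPM in wild type and from 15.4 to 36.7 CPM in the transgenic group, again highest in library 5. Its log2 fold change of 0.45 ± 0.21 (SE, adjusted p in edgeR = 0.286) became 0.23 without that library and -0.21 ± 0.30 beside the hepatocyte covariate. The elongase gene Elovl2, of a list of further fatty acid synthesis genes, acts next in the chain and rose from 1.1 ± 0.284 to 10.6 ± 13.6 CPM (SD, n = 5 each), and the log2 estimate was 3.26 ± 0.76 (SE, adjusted p in edgeR = 0.0225). It stood at 1.89, 5.68, 2.02, 8.88 and 34.4 CPM in transgenic libraries 1 to 5, and the 3 libraries with the most hepatocyte transcripts, 5, 4 and 2, also held the most Elovl2. The call was lost without any 1 of the wild-type libraries (edgeR adjusted p up to 0.0695), and beside the hepatocyte covariate the log2 fold change was -0.50 ± 0.32 (SE, adjusted p in edgeR = 0.659).

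The desaturase genes Fads1, Fads2 and Fads3 lie next to each other on chromosome 19. Within 200 kb of Fads1 the table holds 11 genes, of which 9 were tested and Fads1 alone was called, a window chosen after its rise was seen. Fads3, whose product has a desaturase fold, went from 4.24 ± 1.77 to 6.97 ± 0.953 CPM (SD, n = 5 each), a log2 estimate of 0.72 ± 0.23 (SE, adjusted p in edgeR = 0.0960). The nearest tested gene on the other side, Tmem258, stood at 0.12 ± 0.12 (SE), and Fth1, Best1, Rab3il1, Dagla and Syt7 had estimates from -0.37 to 0.16. Thus the 3 desaturase genes had the highest estimates of the window, and 1 of them passed.

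**Figure D2:**
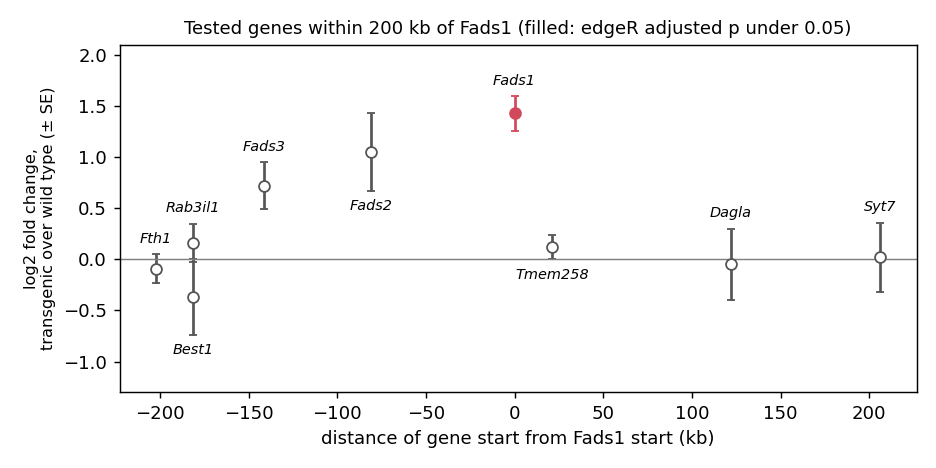
Log2 fold change with its SE of the 9 tested genes within 200 kb of Fads1, against the distance of each gene's start from that of Fads1 in kb. The filled point, Fads1 at 1.43, passed an edgeR adjusted p of 0.05, Fads2 and Fads3 stand at 1.05 and 0.72, and the other genes lie between -0.37 and 0.16.

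The stearoyl-CoA desaturase Scd1, which makes monounsaturated fatty acids, varied most. Its level was 1078, 293, 122, 110 and 87.8 CPM in wild type and 1053, 322, 52.2, 90.7 and 331 CPM in the transgenic group. Libraries 1 of both groups stood far above the rest, and the groups overlapped fully. The log2 fold change was 0.13 ± 0.81 (SE, adjusted p in edgeR = 0.956) with a 95% interval from -1.62 to 1.88, and it ran from -0.77 to 1.23 when 1 library was left out. The SD of its log2 CPM within groups, 1.6, lay at the 99.9th percentile of all genes tested. Fasn, fatty acid synthase, had 40.8, 36, 16.2, 19.1 and 22.1 CPM in wild type and 58.0, 21.8, 24.6, 15.7 and 16.8 CPM in the transgenic group. Acaca, the cytosolic acetyl-CoA carboxylase, had 50.1, 36.1, 30.9, 26.1 and 26.5 CPM in wild type and 56.0, 36.2, 26, 27.2 and 31.0 CPM in the transgenic group. Both were highest in library 1 of each group, as was Scd1, and their log2 fold changes were 0.03 ± 0.36 and 0.06 ± 0.23 (SE, adjusted p in edgeR = 0.974 and 0.930).

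The levels of Scd1 and Acaca moved with adipocyte markers across the 10 libraries. The mean log2 CPM of the adipocyte markers was 5.32, 4.43, 3.56, 3.38 and 2.74 in wild type and 5.15, 4.37, 2.97, 3.25 and 3.97 in the transgenic group. Adipoq, the gene of the fat cell hormone adiponectin, ran from 11.2 to 104 CPM in wild type and from 10.1 to 77.1 CPM in the transgenic group. Of 35 relations computed, those of Scd1 and Acaca passed after adjustment, both positive. For Scd1 Pearson's r was 0.97 (permutation p = 5e-05, adjusted p = 0.000875) and Spearman's rho 0.94 (permutation p = 0.00025, adjusted p = 0.00875). For Acaca r was 0.95 (permutation p = 5e-05, adjusted p = 0.000875) and rho 0.92 (permutation p = 0.00057, adjusted p = 0.00997). Without wild-type library 1 and transgenic library 1, the farthest from the median, r was 0.92 for Scd1 and 0.94 for Acaca (permutation adjusted p = 0.0481 and 0.0395). On deviations from the group means r was 0.97 and 0.95 (exact within-group permutation adjusted p = 0.00243 for each). For Fasn r was 0.74 (permutation adjusted p = 0.132) and 0.32 without those 2 libraries, so that relation rests on them. Fads1 had an r of -0.09. With the adipocyte markers as a covariate the SE of the log2 fold change shrank from 0.81 to 0.23 for Scd1 and from 0.23 to 0.11 for Acaca, with estimates of 0.02 for both.

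**Figure D3:**
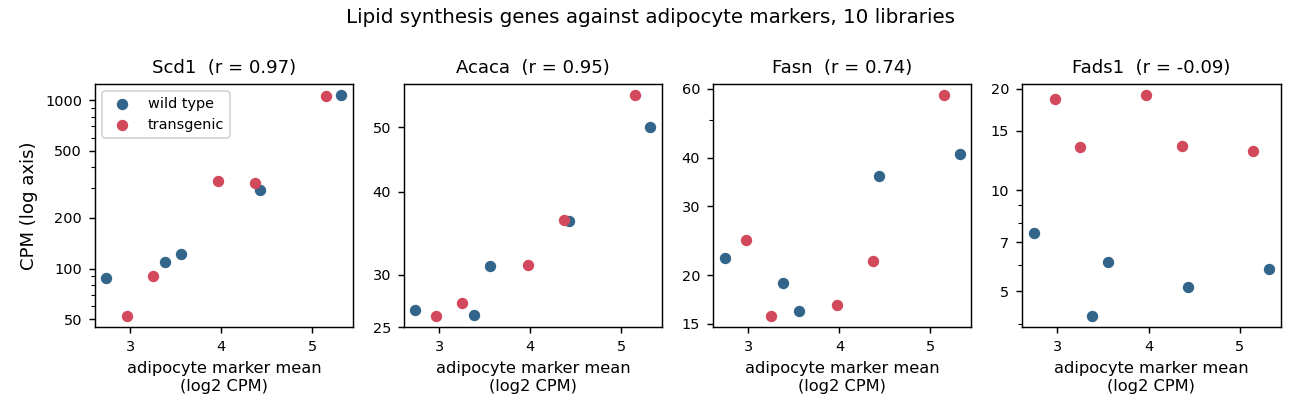
CPM of 4 genes (y axes, log scale) against the mean log2 CPM of the adipocyte markers (x axes) in the 10 libraries, wild type in blue and transgenic in red. Scd1 and Acaca climb along 1 line in both groups (r = 0.97 and 0.95), Fasn does so less closely, and Fads1 separates the groups at every marker level.

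None of the remaining genes of fatty acid synthesis passed in edgeR or DESeq2, though some 95% intervals of the log2 fold change were wide. They reached from -1.19 to 0.61 for Elovl6 and from -1.26 to 0.12 for Scd2. Acly, which splits citrate to release acetyl-CoA, was the steadiest, with 17.1 to 22.0 CPM in wild type and 19.0 to 20.8 CPM in the transgenic group. Its log2 fold change was 0.07 ± 0.10 (SE) with a 95% interval from -0.14 to 0.28. Acacb, the carboxylase of the mitochondrial surface whose product restrains fatty acid oxidation, had 206 to 371 CPM in wild type and 154 to 373 CPM in the transgenic group. Me1, malic enzyme, a source of NADPH, had 93.3 to 163 CPM and 78.9 to 116 CPM in the same order. Acss2, which activates acetate, had an estimate of 0.29 ± 0.14 (SE) and a 95% interval from -0.02 to 0.59. Scd2 stood at 45.1 CPM in wild-type library 5 and at 10.1 to 19.9 CPM in the other libraries, so its estimate of -0.57 ± 0.32 (SE) became -0.10 without that library. Elovl6 was likewise highest there, at 4.90 CPM against 0.632 to 3.11 CPM elsewhere.

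**Figure D4:**
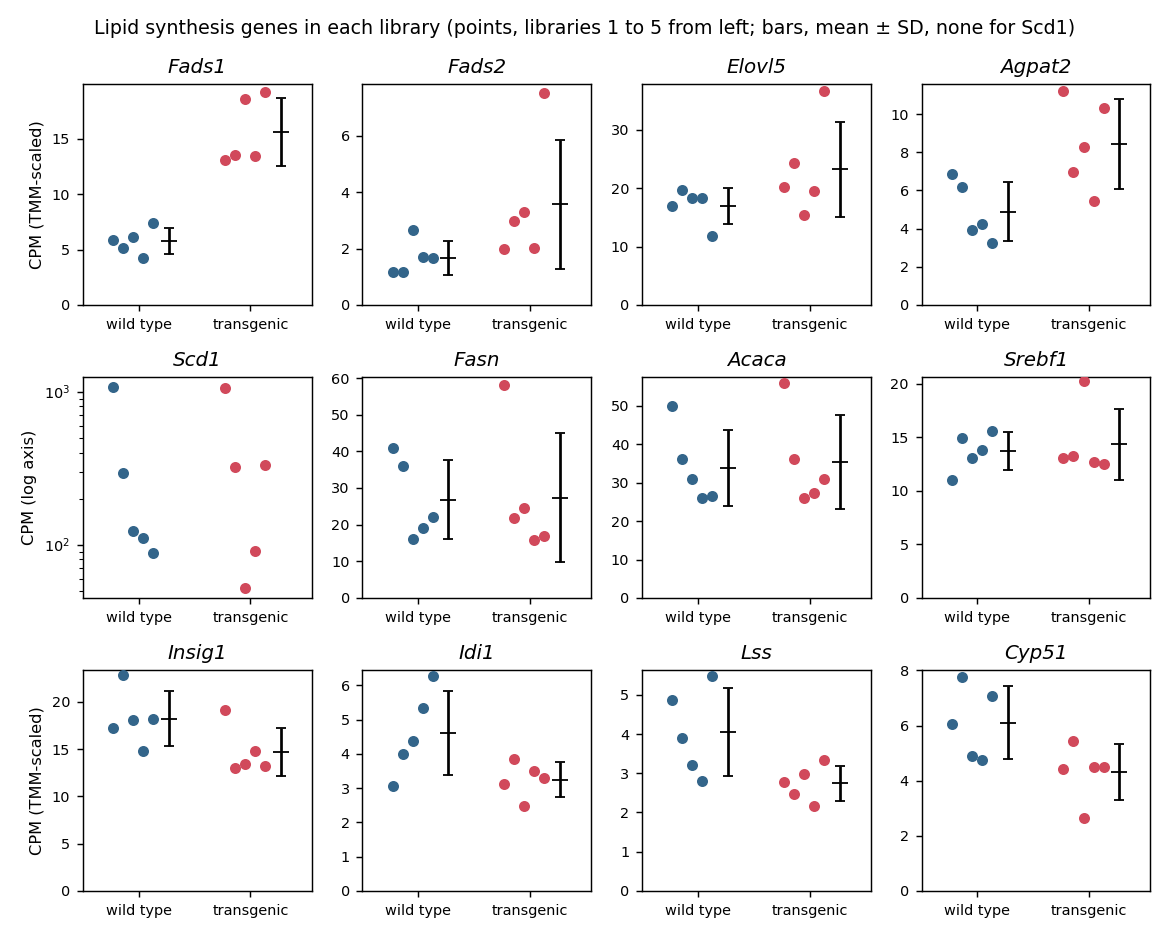
CPM of 12 lipid synthesis genes in each library (points, libraries 1 to 5 from left to right within a group; bars, mean ± SD, n = 5; Scd1 on a log axis without bars). Fads1 does not overlap between groups (4.22 to 7.43 against 13.1 to 19.2 CPM), while the other 11 genes overlap.

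Among the genes that build triglycerides, Agpat2, which adds the second acyl chain and is abundant in fat tissue, had the highest estimate. It stood at 6.85, 6.18, 3.94, 4.22 and 3.25 CPM in wild type and at 11.2, 6.98, 8.28, 5.43 and 10.3 CPM in the transgenic group. Transgenic library 4 lay below wild-type libraries 1 and 2, and the other transgenic libraries above all wild-type ones. The log2 fold change was 0.79 ± 0.24 (SE, adjusted p in edgeR = 0.0803). It passed without transgenic library 4 (edgeR adjusted p = 0.0453) and with the adipocyte markers as a covariate (0.80 ± 0.18 SE, adjusted p in edgeR = 0.0173). It did not pass when any other library was left out (edgeR adjusted p up to 0.19). Beside the hepatocyte covariate it was 0.87 ± 0.39 (SE, adjusted p in edgeR = 0.392). Agpat2 was called in 4 of 21 alternative fits. DESeq2 gave an adjusted p of 0.0334, and the authors' deposited table gives 0.0349. Agpat2 shares 64 exonic bases with Egfl7 on the opposite strand. Gpam and Lpin1, the glycerol acyltransferase and the phosphatidate phosphatase of muscle, had 104 to 204 and 334 to 564 CPM in wild type and 122 to 178 and 297 to 463 CPM in the transgenic group. Their log2 fold changes were -0.05 ± 0.17 and -0.04 ± 0.17 (SE), with 95% intervals from -0.42 to 0.32 and from -0.41 to 0.33. Dgat1 and Dgat2, which add the last chain, had 0.29 ± 0.20 and 0.21 ± 0.33 (SE). Dgat2 ran from 15.5 to 36 CPM in wild type and from 13.4 to 45.9 CPM in the transgenic group, highest in transgenic library 3.

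In a list of 16 further triglyceride genes 13 were tested and none passed in edgeR. Of these, 5 had an unadjusted p under 0.05, all higher, and DESeq2 called 2. Of all genes 11.2% were higher at that unadjusted p, and DESeq2 called 7.74% in either direction. The smallest p belonged to the phosphatases Lpin3 and Lpin2. Lpin3 went from 7.51 ± 0.894 to 10.8 ± 2.25 CPM and Lpin2 from 7.75 ± 1.86 to 15.7 ± 9.19 CPM (SD, n = 5 each, adjusted p in edgeR = 0.0722 and 0.0812). Lpin2 stood at 31.6 CPM in transgenic library 5, and its log2 fold change of 1.03 ± 0.31 was 0.61 without that library, 0.43 without transgenic libraries 4 and 5 and -0.32 ± 0.29 beside the hepatocyte covariate (SE). Elovl2 was the 1 gene called by edgeR of 21 tested in the list of 26 further fatty acid genes, where 5.33% of all genes were called. At an unadjusted p of 0.05 in edgeR, 4 of that list were higher and 1 lower, against 11.2% and 6.87% of all genes. DESeq2 called 3 of that list, with 7.74% of all genes called.

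None of the 5 regulators passed in edgeR or DESeq2, and 1 had an unadjusted p under 0.05, where 18.1% of all genes did. Srebf1, which encodes SREBP1, stood at 11 to 15.6 CPM in wild type and at 12.5 to 20.2 CPM in the transgenic group (log2 fold change 0.07 ± 0.15, SE). Mlxipl, which encodes ChREBP, had 15.1 to 24.6 and 15.1 to 23.8 CPM. Thrsp, a lipogenic nuclear protein, had 8.87 to 15.5 and 13.1 to 19.3 CPM. Srebf2, which encodes the SREBP of the cholesterol genes, had 4.96 to 8.22 and 6.33 to 10.7 CPM. Transgenic library 3 was the highest of its group for Srebf1, Srebf2 and Thrsp. Insig1, which holds SREBP in the endoplasmic reticulum and is itself an SREBP target, had 17.2, 22.9, 18.1, 14.8 and 18.2 CPM in wild type and 19.1, 13.0, 13.4, 14.8 and 13.2 CPM in the transgenic group. Transgenic library 1 lay within the wild-type range and the other 4 at or below its lowest value. The log2 fold change was -0.31 ± 0.14 (SE, adjusted p in edgeR = 0.269). Of 15 further regulators of SREBP, ChREBP and the sterol receptor LXR none passed in edgeR and 3 had an unadjusted p under 0.05. At that unadjusted p the share over all genes was 18.1%. Usp20, a deubiquitinase, had the smallest p (log2 fold change -0.61 ± 0.17 SE, adjusted p in edgeR = 0.0557), and DESeq2 called it (adjusted p = 0.0199). Nr1h2, which encodes an LXR, came next, at 0.40 ± 0.16 (SE, adjusted p in edgeR = 0.198).

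The cholesterol genes held no call in edgeR or DESeq2, and 5 of 13 estimates lay above 0, against 50.4% of all genes. Their median log2 fold change was -0.169. Idi1, an isomerase of the isoprenoid stage, stood at 3.07, 3.98, 4.38, 5.33 and 6.27 CPM in wild type and at 3.11, 3.86, 2.47, 3.49 and 3.28 CPM in the transgenic group. Lss, which folds squalene epoxide into lanosterol, had 4.88, 3.89, 3.22, 2.79 and 5.48 CPM and then 2.78, 2.47, 2.97, 2.17 and 3.34 CPM. Cyp51, which demethylates lanosterol, had 6.06, 7.78, 4.88, 4.74 and 7.07 CPM and then 4.44, 5.44, 2.66, 4.49 and 4.50 CPM. For each of these genes the transgenic libraries lay in the lower part of the wild-type range or below it, and the groups overlapped. The log2 fold changes were -0.50 ± 0.20, -0.56 ± 0.21 and -0.49 ± 0.20 (SE, adjusted p in edgeR = 0.202, 0.170 and 0.213). They had unadjusted p-values of 0.0270, 0.0201 and 0.0303 and are the 3 of 13 cholesterol genes under 0.05, all lower. Of all genes 6.87% were lower and 11.2% higher at that unadjusted p.

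Fdft1, squalene synthase, was the most abundant cholesterol gene, at 36.1 to 55.9 CPM in wild type and 33.4 to 50 CPM in the transgenic group (log2 fold change -0.30 ± 0.14 SE, adjusted p in edgeR = 0.290). It shares 774 exonic bases with Ctsb on the opposite strand, and Cyp51 shares 166 with Akap9. The strand setting of the counting is not stated, so such reads cannot be told apart. The mevalonate enzymes Mvk and Mvd had log2 fold changes of -0.17 ± 0.23 and -0.29 ± 0.17 (SE). Fdps, farnesyl diphosphate synthase, lay at 0.508 to 1.64 CPM over the 10 libraries, the lowest level of the 35. Sqle, the epoxidase that limits the later steps, had 1.77 to 3.39 CPM in wild type and 1.58 to 2.17 CPM in the transgenic group. Of the enzymes after lanosterol, Msmo1, Nsdhl, Sc5d and Dhcr7 had estimates from -0.09 to 0.27, with 95% intervals that reached from -0.40 to 0.83. Stard4, a cytosolic sterol carrier, had 3.72 to 5.12 and 2.66 to 6.36 CPM.

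Soat1, which esterifies cholesterol for storage, comes from a list of further genes of the pathway. Of the 10 genes tested in that list 3 were called in edgeR, Soat1 among them, where 5.33% of all genes were. DESeq2 also called 3 of the list, with 7.74% of all genes called. Soat1 stood at 6.92, 6.09, 7.26, 5.52 and 6.2 CPM in wild type and at 10.7, 11.3, 11.5, 13.0 and 9.58 CPM in the transgenic group. Every transgenic library of Soat1 lay above every wild-type one. The mean rose from 6.4 ± 0.692 to 11.2 ± 1.26 CPM (SD, n = 5 each), and the log2 estimate was 0.81 ± 0.12 (SE, adjusted p in edgeR = 0.00229). It passed without any 1 library, and also without transgenic libraries 4 and 5 (edgeR adjusted p = 0.00948). Beside the hepatocyte covariate the log2 fold change was 0.97 ± 0.21 (SE) and did not pass (edgeR adjusted p = 0.0680).

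**Figure D5:**
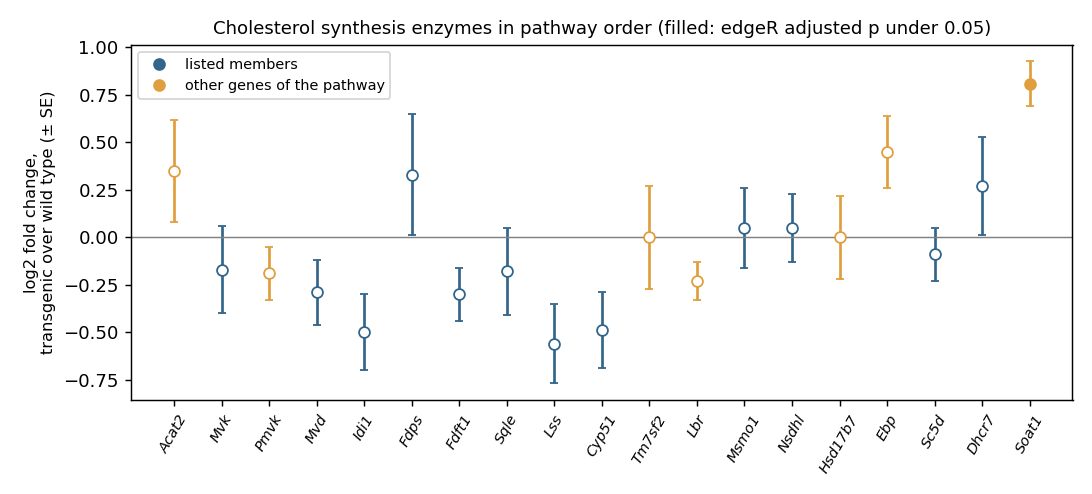
Log2 fold change with its SE for genes of cholesterol synthesis in pathway order. The 12 listed enzymes are in blue and some further genes of the pathway in orange. The filled point, Soat1 at 0.81, passed an edgeR adjusted p of 0.05, while Idi1, Lss and Cyp51 lie near -0.5.

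Levels of different genes were compared per kb of summed exon length, as CPM per kb in wild type. Scd1 was highest, at 69.1 ± 86.2 (SD, n = 5), an SD above the mean. Lpin1 followed at 41.9 ± 10.2, then Me1 at 30.2 ± 7.71, Acacb at 28 ± 6.46 and Gpam at 23.0 ± 5.71 (SD, n = 5 each). The ranges of mean ± SD of neighbours in that order overlapped. Fdft1, at 11.4 ± 1.74, led the cholesterol genes, whose other members lay between 0.194 for Fdps and 3.14 for Sc5d. Fasn was at 2.45 ± 0.994 and Acaca at 1.99 ± 0.580, so Acacb, the mitochondrial form, stood above Acaca by more than the SD of both (SD, n = 5 each). Fads1 was at 1.19 ± 0.246 in wild type and had a mean of 3.23 in the transgenic group.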

How the data were processed

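Counts of RNA-seq reads per gene were deposited by the authors as whole numbers, not normalized, for 10 libraries. The submitters' processing notes name DESeq2 1.10, HTSeq 0.6.1 and, for reads, Bowtie2 2.2.6, TopHat2 2.1 and SAMtools 1.2. The build is GRCm38, per the labels; strand and counting settings are not stated. The deposited table also holds the authors' mean signal per gene, log2 fold changes, Wald score and p-values.

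The quasi-likelihood test of edgeR 4.0.16 (R 4.3.3) was run on the 13338 genes that filterByExpr kept, after TMM scaling, with Benjamini-Hochberg adjustment. Each SE is the size of the estimate over the root of F. Log2 CPM used a prior count of 2. Relations used 100000 permutations. Coordinates and exon lengths come from GENCODE release M21. Alternatives were other scalings and filters, DESeq2 1.42.0, the authors' p-values, covariates and left-out libraries. The test was tested on simulated data.

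All 35 genes are named, with called genes of the further lists or the 2 of smallest p. Results for some genes that this rule names are not reported here. Genes and lists were chosen with earlier results of these data known. The series describes separate mice.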

Additional observations from a re-analysis of the deposited data

Results flagged for a closer look

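In 9 of the 86 groups of 5 libraries checked, 1 library stood apart from the other 4, where chance gives about 1 in 20. Wild-type library 5 was the highest of its group for Elovl6, at 4.90 CPM against 1.44 to 1.89 in the others, for Scd2, at 45.1 CPM against 13.1 to 18.3, for Sqle, at 3.39 CPM against 1.77 to 1.86, and for Stard4, at 5.12 CPM against 3.72 to 4.03. This library had the lowest adipocyte marker mean of its group and the lowest share of rows that resemble ribosomal RNA, 14.3%. It also had the highest hepatocyte marker mean, 2.19 in log2 CPM, and the highest muscle marker sum, 243021 CPM, of its group. Over the 10 libraries the relations of Elovl6, Scd2, Sqle and Stard4 with the adipocyte marker mean did not pass. Their r ran from -0.27 to 0.34 (permutation adjusted p from 0.641 to 0.877). The part of any of these traits in the values of this library alone was not tested.

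Transgenic library 3 was the highest of its group for Srebf1, at 20.2 CPM against 12.5 to 13.2, for Thrsp, at 19.3 CPM against 13.1 to 14.5, and for Srebf2, at 10.7 CPM against 6.33 to 7.33. The same library was the lowest for Cyp51, at 2.66 CPM against 4.44 to 5.44. Nsdhl stood at 3.22 CPM in transgenic library 1 against 2.23 to 2.47 in the others of its group.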

How the results depend on the processing

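Of the 35 genes, 1 rose and none fell in the test as reported. The count of genes that rose was 2, Fads1 and Agpat2, in DESeq2, in the authors' deposited table and with the adipocyte markers as a covariate, and also 2 at an adjusted p of 0.1. With hepatocyte markers in the model it was 0, where Elovl2 turned to -0.5, and it was 1 to 2 when a library was left out. No alternative run gave a gene that fell. Scd1 and Acaca, 2 genes, passed the relation with adipocyte markers in each of the 3 settings run. Fads1 was called in 20 of 21 alternative fits, with log2 fold changes from 1.19 to 1.56. Over all genes 711 were called as reported, 450 without wild-type library 3, 1114 without transgenic library 3, 78 with the hepatocyte covariate, 1230 in DESeq2, 1158 in the authors' table and 1115 at an adjusted p of 0.1. At an adjusted p of 0.01 the share was 1.89%. Of the 34 uncalled genes among the 35, 16 changed the sign of their estimate in at least 1 alternative. With the hepatocyte covariate Msmo1, Dhcr7 and Stard4 stood at -0.09, -0.17 and -0.23. No paired analysis was possible because the labels give no pairing of the mice, and the columns also carry no number shared with them. The depth behind Fdps and Dhcr7 was a mean of 11.8 and 26.6 counts a library in wild type, and their intervals of the log2 fold change ran from -0.35 to 1.02 and from -0.28 to 0.83.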
